A study of Homo sapiens with 38 samples.

Results

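Solute carriers are the largest superfamily of membrane transport proteins and are named SLC followed by a family number. Every gene of the expression table whose single symbol began with SLC and a digit was taken, apart from SLC2A3, which gave 219 genes of 11893 genes with 1 symbol. Where a gene had several probe sets, as 4 of the 219 had, the probe set with the highest mean over all 38 arrays stood for it. A probe set is the group of probes on an array that reports on 1 gene. The name does not make every member a transporter: SLC2A4RG and SLC4A1AP are named after a carrier that they regulate or adjoin, and 3 members, SLC22A20P, SLC25A51P4 and SLC66A1LP, are annotated as pseudogenes in RefSeq.

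Solute carriers move amino acids, sugars, metal ions, vitamins, nucleosides and inorganic ions across the cell surface and across the membranes of mitochondria, lysosomes and the secretory pathway. Most work by coupling the substrate to a gradient of sodium, protons or a second solute, and a few, such as the glucose transporters of family 2, let it run down its own gradient. In lung epithelium they set the composition of the airway liquid and supply the cell with nutrients. Interleukin 1 beta (IL1B) is an inflammatory cytokine that acts largely through the transcription factor NF-kB, and restriction or redistribution of metals and amino acids is a known part of inflammation.

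The cells were A549, an established line from a human lung adenocarcinoma that keeps traits of the alveolar lining. The 10 groups were ORMDL3 knockdown cells at 0, 2, 4, 8 and 10 h of IL1B and control cells at 0, 2, 4, 8 and 10 h of IL1B, with 4 arrays in each of 8 groups and 3 arrays in each of the other 2 (knockdown 0 h and control 8 h). Knockdown was made with a pool of siRNAs against ORMDL3, which encodes an endoplasmic reticulum protein that restrains sphingolipid synthesis, and the sources used here do not give what the control cells received. Both arms had 48 h of silencing and 24 h without serum before IL1B at 1 ng/ml. The 0 h arrays were not treated with IL1B. No later hour had an untreated array, so effects of IL1B and of further time in culture cannot be told apart. Nothing in the labels says whether replicates came from separate cultures, so the p-values rest on a spread between arrays that may be technical.

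Values are log2 levels as deposited, and each difference of 2 group means is given ± its standard error from limma. A member is called when limma's Benjamini-Hochberg adjusted p over all 14488 probe sets is under 0.05. ORMDL3 lay between 5.00 and 5.57 on the 19 knockdown arrays and between 6.78 and 7.77 on the 19 control arrays, and 25.1% of its level was left. Of the lung epithelial markers 7 of 10 were measured, and their mean level lay between 10.0 and 10.4 on the knockdown arrays and between 9.99 and 10.4 on the control arrays. The leukocyte markers measured, CD14 and ITGAM, averaged 6.78 to 7.37 on the knockdown arrays and 6.78 to 7.36 on the control arrays. The surfactant and lineage markers NKX2-1, SFTPB and SFTPC were not analysed here. In extracts of whole cultures, fewer cells of a kind and less RNA per cell cannot be told apart. Of the 219 members 24 lay below the lower quartile of the array on every array, and 169 on none.

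The first question was which solute carriers changed when control cells were stimulated. IL1B moved about as many carriers down as up. As the mean of the 4 time points, the called changes of more than 2-fold were upward. They included the amino acid transporter SLC6A14, the riboflavin transporter SLC52A3 and the mitochondrial iron carrier SLC25A37. The sugar phosphate and sugar transporters SLC37A1 and SLC2A6 and the metal importer SLC39A8 were also among them. For that mean over 2, 4, 8 and 10 h, 50 members were higher (background over all probe sets 18.1%) and 62 lower (21.2%) than at 0 h, together 51.1% of members against 39.3% of all probe sets and 42.4% of genes with 1 symbol. The median difference was -0.05 over the members and -0.02 over all probe sets. By hour, 33 members were higher and 22 lower at 2 h (background 10.3% higher and 9.77% lower, 20.0% in all) and 45 higher and 57 lower at 4 h (17.0% and 20.9%, 37.9% in all). At 8 h 49 were higher and 58 lower (16.4% and 17.9%, 34.3% in all), and at 10 h 53 were higher and 63 lower (17.7% and 17.0%, 34.7% in all). Of the called members 17 rose and 7 fell by more than 1.5-fold for the mean, and 9 rose and 0 fell by more than 2-fold. Their median size of change was 0.37. At single hours some called members did fall by more than 2-fold: 1 at 4 h, 3 at 8 h and 2 at 10 h. Those that rose so far numbered 6 at 2 h, 10 at 4 h, 11 at 8 h and 11 at 10 h. Shares past these sizes over all probe sets were not worked out. The upward lean of large changes may therefore not be particular to solute carriers. Beside these changes 5 of the 7 measured lung epithelial markers fell with IL1B, CDH1 by 0.81 on the log2 scale, and 1 rose, LAMP3 by 2.37 ± 0.07. Of the 2 leukocyte markers measured ITGAM rose (0.61 ± 0.07) and CD14 was not called (-0.12). Of the 2 fibroblast and endothelial markers measured CDH5 rose (1.12 ± 0.09) and COL1A1 was not called (0.006). The control 0 h means of ITGAM (6.12) and CDH5 (5.28) lay below the lower quartile of those arrays (6.61 to 6.66). The part of these marker shifts in the values of solute carriers was not tested.

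**Figure D1:**
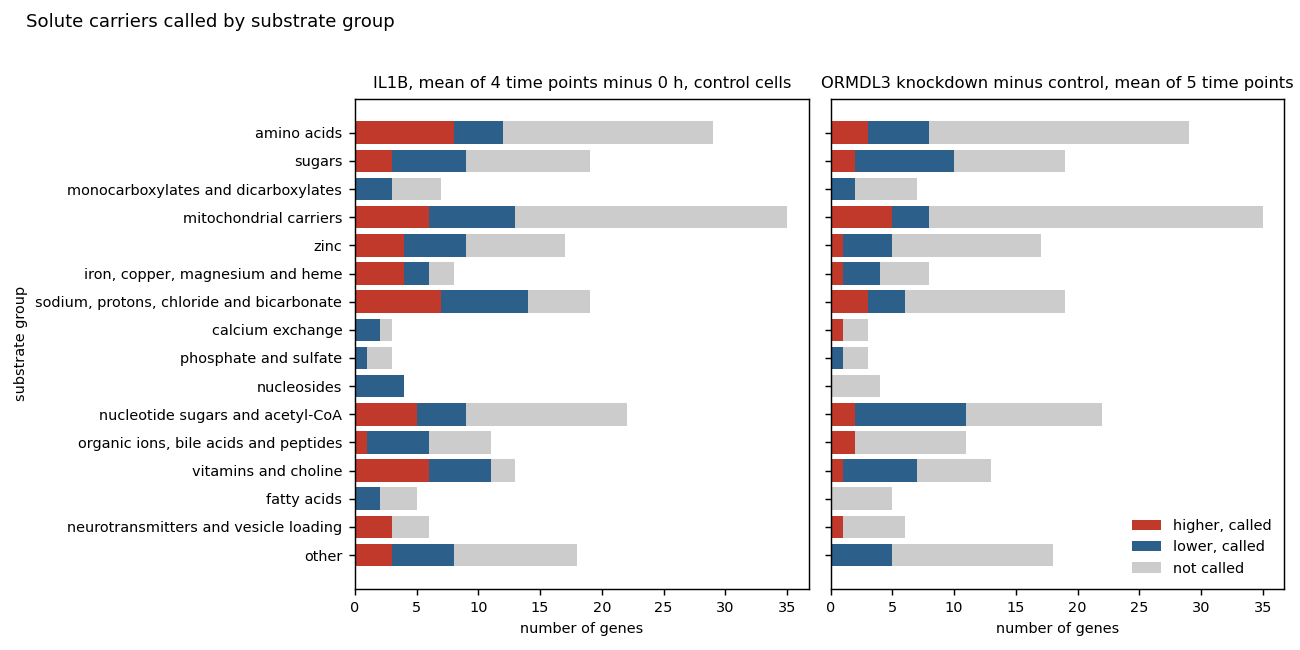
Number of solute carrier genes in each of 16 substrate groups (rows), split into called higher (red), called lower (blue) and not called (grey), for IL1B in control cells (left) and for ORMDL3 knockdown against control (right). Amino acid carriers have 8 higher and 4 lower with IL1B, and all 4 nucleoside carriers are lower. Sugar carriers have 2 higher and 8 lower with knockdown. Over all probe sets 18.1% were called higher and 21.2% lower with IL1B, and 10.9% and 12.1% with knockdown.

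Carriers of amino acids formed 1 of the largest groups, with 8 of 29 higher and 4 lower (background over all probe sets 18.1% and 21.2%). SLC6A14, which takes up neutral and cationic amino acids with sodium and chloride, had the highest mean change of all members at 2.74 ± 0.24 (adjusted p = 1.91e-11), or 6.69-fold as measured. Its level was 7.78, 7.75 and 7.94 on the 8 h control arrays, against 4.59, 4.56, 4.66 and 4.20 at 0 h. It was already at 6.67, 6.33, 6.57 and 5.30 at 2 h, and every stimulated array stood above every 0 h array. The 0 h levels lay far below the lower quartile of their arrays (6.61 to 6.66), and no detection call was used, so the fold may be a lower bound. On the control arrays replicate 4 was the lowest at 0, 2, 4 and 10 h, the hours at which there was one, for example 6.36 at 4 h.

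SLC7A2, a transporter of arginine and other cationic amino acids, rose by 1.14 ± 0.08, and SLC43A3, placed here by family but known to carry purine bases, rose by 0.92 ± 0.10. The level of SLC7A2 was 10.03, 10.12 and 9.94 at 8 h, against 8.62, 8.80, 8.78 and 8.37 at 0 h, without overlap. SLC1A4, an exchanger of alanine, serine and cysteine, was among the 5 lowest of all members at -0.68 ± 0.06. It measured 7.75, 7.53 and 7.79 at 8 h, against 8.65, 8.57, 8.65 and 8.92 at 0 h, and all stimulated arrays were below all 0 h arrays. Its relative SLC1A5, the main glutamine importer of many cancer lines, fell by 0.40 on the log2 scale with all control hours below 0 h. The leucine transporter SLC43A1 fell too, at -0.60 ± 0.09. The means of the 2 cystine and leucine exchangers SLC7A11 (-0.03) and SLC7A5 (-0.09) and of their shared heavy chain SLC3A2 (-0.09) did not pass the test.

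Vitamin and choline carriers had 6 of 13 higher and 5 lower (background 18.1% and 21.2%). SLC52A3, which takes up riboflavin, changed early: its levels were 8.60, 8.84, 8.70 and 8.51 at 4 h, against 5.87, 5.77, 5.96 and 5.61 at 0 h. The difference was 2.86 ± 0.11 at 4 h and 0.69 ± 0.11 at 10 h, so most of the early rise was gone while the 10 h arrays, at 6.40 to 6.75, still lay above those at 0 h. Its 0 h levels too were below the lower quartile of their arrays. SLC23A2, an ascorbate transporter, rose by 0.45 ± 0.08. Its relative SLC23A1, also an ascorbate transporter, went the other way. SLC23A1 measured 7.59, 7.93, 7.81 and 7.32 at 10 h, against 8.42, 8.73, 8.59 and 8.23 at 0 h, without overlap. SLC46A3, a carrier of the lysosomal membrane, was late, at -0.04 ± 0.14 at 2 h and 1.25 ± 0.14 at 10 h. SLC19A3, a thiamine transporter, was higher at 4 h (0.63 ± 0.09) and at 0.03 ± 0.09 at 10 h, which was not called. SLC19A1, the reduced folate carrier, fell by 0.25 on the log2 scale.

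Sugar carriers had 3 of 19 higher and 6 lower (background 18.1% and 21.2%). SLC37A1, which exchanges glucose 6-phosphate for phosphate at the endoplasmic reticulum, rose by 1.45 ± 0.06. It was at 9.40, 9.40, 9.38 and 9.44 on the 4 h arrays, against 7.75, 7.52, 7.66 and 7.44 at 0 h, and the 4 h arrays lay within a narrow band. SLC2A6, a hexose transporter of lysosomes, rose by 1.41 ± 0.07 and measured 10.84, 10.60, 10.69 and 10.74 at 4 h, against 9.06, 8.98, 9.09 and 9.09 at 0 h. Both were above 0 h on every stimulated array. SLC45A4, grouped here by family, fell and came back: it was 7.65, 7.37, 7.65 and 7.44 at 4 h, against 8.81, 9.14, 9.04 and 9.07 at 0 h, and 9.14, 8.83, 9.18 and 9.10 at 10 h. The 4 h difference was -1.49 ± 0.10, and the 10 h difference of 0.05 ± 0.10 was not called, with overlapping arrays. SLC2A1, the main glucose transporter of the cell surface, had a difference of 0.24 ± 0.07 at 4 h (adjusted p = 0.00797, and 0.0529 without the arrays numbered 4) and of -0.52 ± 0.07 at 10 h. SLC2A14 was lower at -0.71 ± 0.09, with 6.22, 6.17, 6.38 and 5.96 at 4 h, against 7.06, 7.13, 6.99 and 6.81 at 0 h. It is a near-identical copy of another glucose transporter gene, so its probes may read both, and its value is uncertain.

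Metal carriers fell into 2 groups. Of the iron, copper, magnesium and heme carriers 4 of 8 were higher and 2 lower (background 18.1% and 21.2%). SLC11A2, an importer of ferrous iron, rose by 0.75 ± 0.05 and SLC31A2, a copper carrier of internal membranes, by 0.76 ± 0.06, while SLC40A1, the only known iron exporter, fell by 0.51 on the log2 scale. The SLC40A1 levels were 8.47, 8.50, 8.36 and 8.03 at 2 h, against 8.91, 9.19, 8.99 and 8.80 at 0 h. The magnesium carrier SLC41A2 peaked at 4 h (0.92 ± 0.06) and stood at -0.01 ± 0.06 at 10 h. Among zinc carriers 4 of 17 were higher and 5 lower, beside the same background. SLC39A8, which imports zinc, manganese and iron, rose by 1.41 ± 0.05 and kept climbing, to 11.89, 11.90, 11.77 and 11.73 at 10 h, against 9.95, 9.66, 9.69 and 9.92 at 0 h. Its relative SLC39A14 rose by 0.45 ± 0.05, and SLC30A7, which loads zinc into the secretory pathway, by 0.53 ± 0.05, whereas SLC39A10 fell by 0.39 on the log2 scale.

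Mitochondrial carriers were the largest group, with 6 of 35 higher and 7 lower, near the background of 18.1% and 21.2%. SLC25A37, mitoferrin 1, which brings iron into mitochondria, stood apart from the others in size at 1.49 ± 0.06. Its levels were 11.02, 10.88, 11.16 and 11.05 at 4 h, against 9.20, 9.11, 9.38 and 8.99 at 0 h, and no stimulated array reached down to the 0 h values. SLC25A23, a carrier of ATP and magnesium with phosphate, fell by 0.49 on the log2 scale and was called at each hour.

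Carriers of sodium, protons, chloride and bicarbonate had 7 of 19 higher and 7 lower (background 18.1% and 21.2%). SLC12A7, a potassium and chloride cotransporter, rose early and came back: 10.34, 10.34, 10.22 and 10.52 at 4 h, against 8.60, 8.66, 8.41 and 8.37 at 0 h, and 8.74, 8.85, 8.58 and 8.63 at 10 h. The difference was 1.84 ± 0.09 at 4 h and 0.19 ± 0.09 at 10 h, the second not called. SLC4A4, the electrogenic sodium bicarbonate cotransporter, had the lowest mean of all members at -0.77 ± 0.11 and changed late. It measured 7.12, 7.29 and 7.36 at 8 h, against 8.63, 8.83, 8.71 and 8.30 at 0 h. The 2 h arrays overlapped those at 0 h (-0.04 ± 0.14, not called), while the 8 h and 10 h arrays lay wholly below them. SLC4A8, another sodium-linked bicarbonate carrier, fell by 0.64 on the log2 scale. SLC12A2, the sodium, potassium and chloride cotransporter, had a mean difference of -0.04 and was not called.

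The nucleoside group was small and went one way: SLC29A1 (-0.35 ± 0.05), SLC29A2 (-0.47 ± 0.06), SLC29A3 (-0.47 ± 0.06) and SLC29A4 (-0.47 ± 0.08), the equilibrative transporters, were all called lower. Of the neurotransmitter and vesicle carriers 3 of 6 were higher and 0 lower, with SLC6A12, which takes up betaine and GABA, at 1.37 ± 0.11 and SLC18B1, a vesicular polyamine carrier, at 0.84 ± 0.11. Organic ion, bile acid and peptide carriers had 1 of 11 higher, the ergothioneine transporter SLC22A4 at 0.33 ± 0.09, and 5 lower, among them the multidrug extruder SLC47A1 at -0.37 ± 0.06 and the carnitine transporter SLC22A5 at -0.23 ± 0.07. Monocarboxylate and dicarboxylate carriers had 0 of 7 higher and 3 lower. For each group of this paragraph the background was 18.1% higher and 21.2% lower. SLC16A14, whose substrate is uncertain, was lower at -0.64 ± 0.12, with 5.28, 5.16, 4.87 and 5.16 at 10 h, against 6.25, 6.15, 6.43 and 5.73 at 0 h. It lay below the lower quartile on all 38 arrays.

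Nucleotide sugar and acetyl-CoA carriers had 5 of 22 higher and 4 lower (background for these and the groups that follow 18.1% and 21.2%). Fatty acid carriers had 0 of 5 higher and 2 lower, calcium exchangers 0 of 3 higher and 2 lower, and phosphate and sulfate carriers 0 of 3 higher and 1 lower. The calcium exchangers lower with IL1B were SLC24A1 at -0.51 ± 0.06 and SLC8A1 at -0.42 ± 0.11. In the remaining 18 members 3 were higher and 5 lower, and the iodide transporter SLC5A5 led at 0.91 ± 0.09. One of the lower members was the pseudogene SLC66A1LP at -0.52 ± 0.08.

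**Figure D2:**
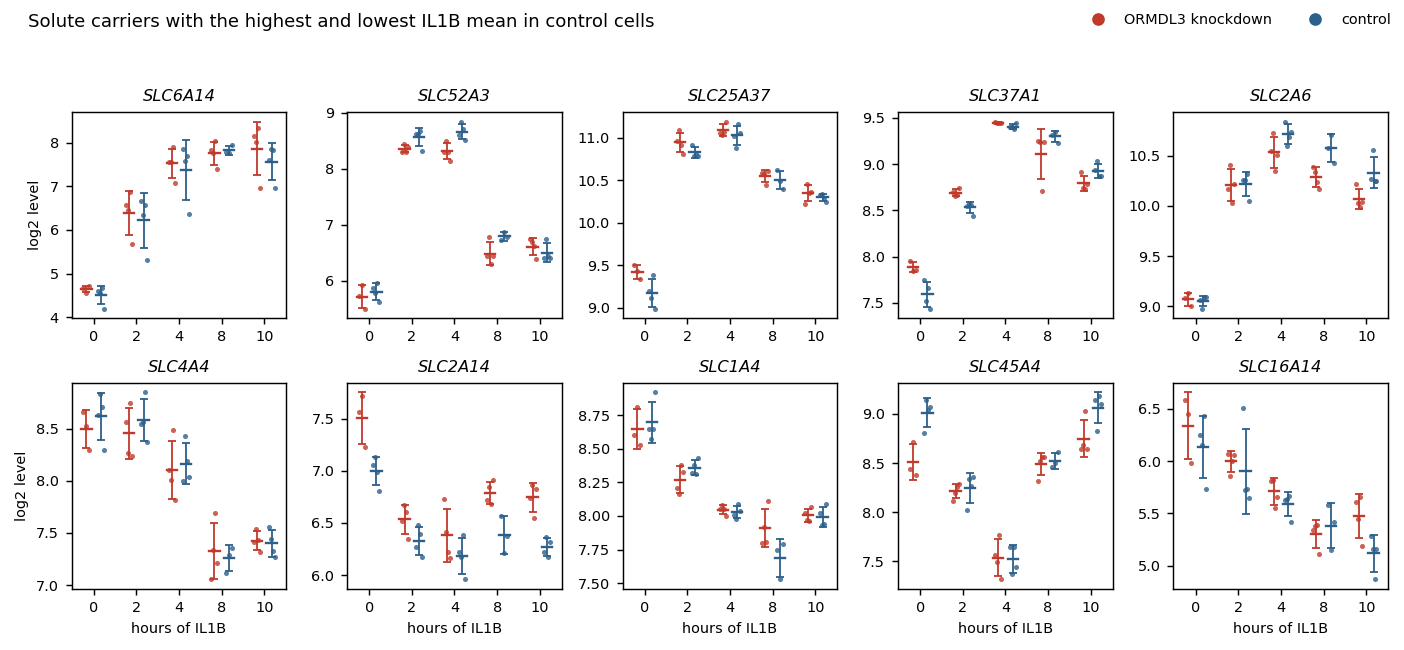
Log2 level (vertical axes) against hours of IL1B (horizontal axes) for the 5 solute carriers with the highest (top) and the 5 with the lowest (bottom) mean IL1B difference in control cells. Dots are arrays, ORMDL3 knockdown red and control blue, and bars are the mean ± SD of 3 or 4 arrays. SLC52A3 is high at 2 and 4 h and much lower at 8 and 10 h in both arms, while SLC6A14 stays high.

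Since several of the members that rose are strong responders to a cytokine that works through NF-kB, the 250 bases before the RefSeq gene start were read for the degenerate 10-base NF-kB consensus on both strands (assembly GRCh38.p14, another build than the one named for the files). Of the 219 members 183 had an entry. The consensus occurred in 13.1% of these members and in 9.57% of the 27305 genes with an entry. It was in 5 of 37 members that rose with IL1B (13.5%), in 7 of 54 that fell (13.0%) and in 12 of 92 that were not called (13.0%). Of the 10 members with the highest IL1B mean 5 had an entry, and 2 of these 5 held the consensus. A match in a window is a description of its letters and not a binding site. The promoters shown are those of these 5 strongly induced members, 2 with a match (capitals) and 3 without, each read 5′ to 3′ on its own strand. They are SLC39A8 at chr4:102345254-102345503 on the minus strand, with its match from 31 to 22 bases before the start, SLC37A1 at chr21:42499372-42499621 on the plus strand, with its match from 80 to 71 bases before the start, SLC6A14 at chrX:116436356-116436605 on the plus strand, SLC2A6 at chr9:133479100-133479349 on the minus strand and SLC12A7 at chr5:1112064-1112313 on the minus strand.
SLC39A8: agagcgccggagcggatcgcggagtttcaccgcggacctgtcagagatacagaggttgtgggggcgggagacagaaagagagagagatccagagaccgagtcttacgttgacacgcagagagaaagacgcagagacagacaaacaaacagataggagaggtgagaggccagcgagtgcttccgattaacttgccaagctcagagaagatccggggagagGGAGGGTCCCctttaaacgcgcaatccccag
SLC37A1: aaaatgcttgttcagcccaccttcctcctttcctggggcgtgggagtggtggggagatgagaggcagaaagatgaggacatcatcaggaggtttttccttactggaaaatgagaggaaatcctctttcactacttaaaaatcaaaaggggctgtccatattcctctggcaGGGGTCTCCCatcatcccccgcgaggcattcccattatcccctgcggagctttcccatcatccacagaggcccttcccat
SLC6A14: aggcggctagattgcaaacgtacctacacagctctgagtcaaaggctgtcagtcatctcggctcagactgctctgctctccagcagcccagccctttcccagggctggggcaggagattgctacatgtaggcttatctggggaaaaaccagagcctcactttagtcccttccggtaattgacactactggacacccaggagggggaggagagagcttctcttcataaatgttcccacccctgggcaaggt
SLC2A6: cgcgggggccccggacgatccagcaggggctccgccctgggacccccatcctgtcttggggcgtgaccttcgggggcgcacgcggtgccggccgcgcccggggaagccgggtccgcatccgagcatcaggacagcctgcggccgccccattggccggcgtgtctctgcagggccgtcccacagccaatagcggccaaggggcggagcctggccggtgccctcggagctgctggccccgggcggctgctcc
SLC12A7: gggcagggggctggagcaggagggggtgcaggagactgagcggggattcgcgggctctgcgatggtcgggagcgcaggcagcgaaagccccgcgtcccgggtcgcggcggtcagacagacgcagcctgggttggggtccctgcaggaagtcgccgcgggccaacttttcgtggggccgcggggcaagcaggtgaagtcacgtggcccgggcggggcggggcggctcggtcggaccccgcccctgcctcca

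The timing of the change varied among members. Of the 50 called higher for the mean, the largest difference fell at 2 h in 4, at 4 h in 20, at 8 h in 9 and at 10 h in 17. Of the 62 called lower it fell at 2 h in 1, at 4 h in 15, at 8 h in 21 and at 10 h in 25. The same split over all called probe sets was not worked out, so this timing may not be particular to solute carriers. Calls over all probe sets were also fewest at 2 h (20.0%, against 37.9% at 4 h, 34.3% at 8 h and 34.7% at 10 h). In control cells 21 members were called higher at each of the 4 hours (background 5.98%), 14 were called lower at each (3.49%) and 65 were called at none (43.6%). The 21 included the iron and zinc importers SLC11A2, SLC39A8 and SLC39A14, the arginine transporter SLC7A2 and the iodide transporter SLC5A5. The 14 included the amino acid exchangers SLC1A4 and SLC1A5, the nucleoside transporters SLC29A2 and SLC29A3 and the mitochondrial carrier SLC25A23.

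**Figure D3:**
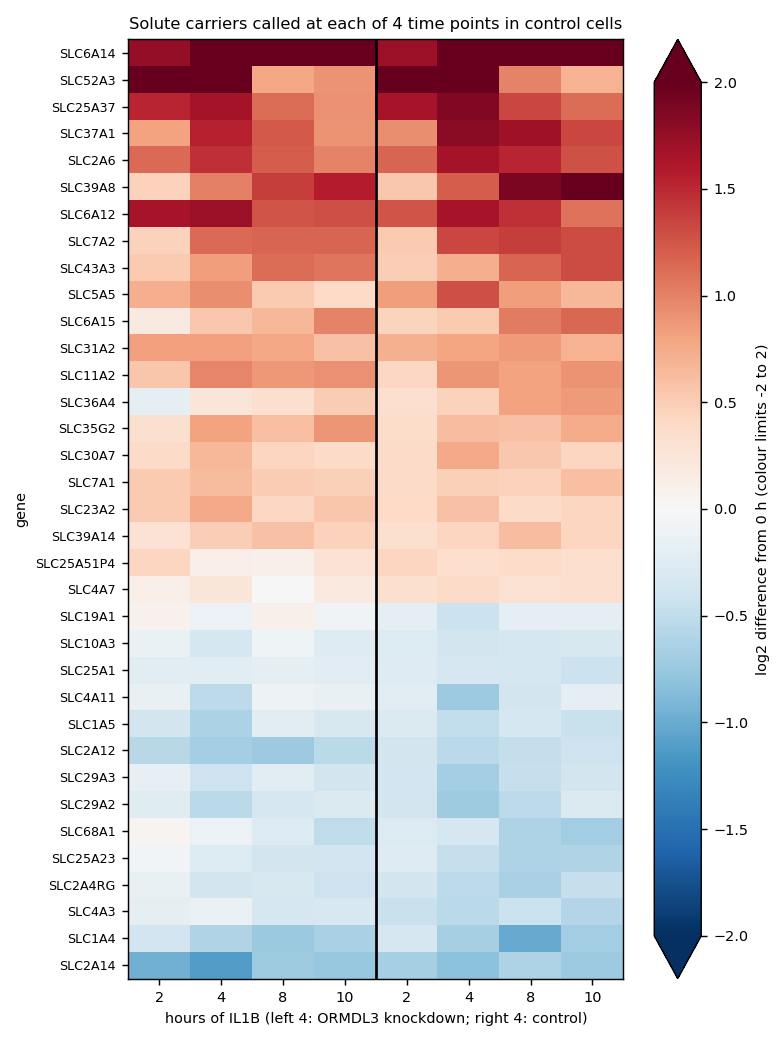
Log2 difference from 0 h (colour, limited to -2 and 2) for the 35 solute carriers called in 1 direction at each of 4 time points in control cells, with ORMDL3 knockdown in the left 4 columns and control in the right 4. The members were chosen by their control values, so the control columns are a description. SLC6A14 and SLC52A3 reach the upper colour limit in both arms.

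The same stimulation of ORMDL3 knockdown cells was compared with knockdown 0 h arrays. For the mean of the 4 hours 43 members were higher and 62 lower (background 12.1% higher and 19.0% lower, 31.1% in all, and 33.9% of genes with 1 symbol). By hour, 26 were higher and 29 lower at 2 h (9.57% and 13.8%, 23.4% in all) and 35 higher and 41 lower at 4 h (12.6% and 17.5%, 30.1% in all). At 8 h 45 were higher and 49 lower (11.2% and 17.7%, 28.9% in all), and at 10 h 44 were higher and 46 lower (11.6% and 13.8%, 25.5% in all). With each array's median subtracted, more members were higher than lower in every one of these comparisons: 31 higher and 24 lower at 2 h, 43 and 30 at 4 h, 49 and 40 at 8 h, 46 and 44 at 10 h, and 49 and 45 for the mean. Quantile normalization gave 31 higher and 29 lower at 2 h, and more lower than higher otherwise. Its counts were 39 higher and 50 lower at 4 h, 46 and 50 at 8 h, 44 and 52 at 10 h, and 43 and 58 for the mean. Called higher at each hour were 17 members (background 4.27%), called lower at each 8 (3.44%), and called at none 83 (50.0%).

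The leading members are given side by side for both arms. The mean difference of SLC6A14 was 2.74 ± 0.27 in knockdown cells and 2.74 ± 0.24 in control cells, that of SLC52A3 was 1.73 ± 0.09 in knockdown cells and 1.82 ± 0.08 in control cells, and that of SLC25A37 was 1.31 ± 0.07 in knockdown cells and 1.49 ± 0.06 in control cells. On the knockdown arrays SLC6A14 measured 7.82, 7.75, 8.04 and 7.40 at 8 h, against 4.66, 4.56 and 4.71 at 0 h. SLC52A3 measured 8.30, 8.49, 8.30 and 8.14 at 4 h, against 5.72, 5.92 and 5.50 at 0 h. All stimulated knockdown arrays of both genes lay above their 0 h arrays. SLC4A4 was 7.06, 7.34, 7.69 and 7.21 at 8 h, against 8.66, 8.53 and 8.30 at 0 h, with a mean difference of -0.67 ± 0.12. The 4 nucleoside transporters were called lower in the knockdown arm too (background 19.0% lower).

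The third question was how far ORMDL3 knockdown itself moved solute carriers. The changes were small and more often downward: for the mean of the 5 hours 22 members were higher and 49 lower (background 10.9% higher and 12.1% lower), together 32.4% of members against 23.0% of all probe sets and 25.0% of genes with 1 symbol. The median difference was -0.03 over the members and -0.01 over all probe sets. Here too, shares called among probe sets of matched level were not worked out. None of the 71 called members changed by more than 1.5-fold, and their median size was 0.18. Single hours gave fewer calls: 6 higher and 6 lower at 0 h (background 2.33% higher and 0.987% lower, 3.31% in all) and 4 higher and 15 lower at 2 h (3.11% and 3.07%, 6.18% in all). There were 3 higher and 4 lower at 4 h (1.11% and 0.732%, 1.84% in all), 4 higher and 4 lower at 8 h (1.62% and 1.26%, 2.88% in all), and 4 higher and 7 lower at 10 h (1.09% and 1.19%, 2.28% in all). With array medians subtracted, the 8 h split was 7 higher and 4 lower.

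Those hourly counts rested on few arrays. At 0 h, 5 members were called without knockdown replicate 4 and 7 without knockdown replicate 2. At 2 h the count was 31 without control replicate 4, 12 without control replicate 1, 8 without control replicate 2, 8 without control replicate 3 and 10 without knockdown replicate 1. At 8 h it was 5 without control replicate 1, 3 without control replicate 2 and 4 without knockdown replicate 4. At 10 h it was 0 without control replicate 1, 3 without control replicate 3, 6 without control replicate 4, 5 without knockdown replicate 1, 4 without knockdown replicate 2 and 1 without knockdown replicate 4. At 4 h it lay between 5 and 10 with 1 array left out, and the mean of the 5 hours gave between 60 and 76 calls. With only the groups compared in the fit, 1 member was called at 0 h, 5 at 2 h, 1 at 4 h, 0 at 8 h and 2 at 10 h, while array weights gave 38 at 0 h, 47 at 2 h and 15 at 8 h.

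Consistency of sign over the hours gave a second view of the same arrays. The knockdown group mean was above the control group mean at all 5 hours in 20 members and below it at all 5 in 46, against 12.5% and 13.5% of all probe sets. Of the 219 members 50 were called for the mean and kept 1 sign at all 5 hours (background 17.3%). That is 50 of the 71 called members, beside 2511 of the 3332 probe sets called. Calls in the same direction at all of 0, 2, 4, 8 and 10 h were seen in 0 members (background 0.366%). In 4 members, SLC16A13, SLC19A3, SLC1A5 and SLC23A2, every knockdown array lay below every control array of its hour at all 5 hours (background 0.276%), and in 0 members was the opposite true (0.345%).

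SLC16A13, a member of the monocarboxylate family, had the lowest mean knockdown difference at -0.42 ± 0.05 (adjusted p = 7.03e-08), 1.33-fold lower. Before IL1B it measured 10.59, 10.46 and 10.00 on the knockdown arrays, against 10.97, 10.72, 10.61 and 10.61 on the control arrays. At 10 h it was 10.66, 10.77, 10.60 and 10.47 in knockdown cells, against 11.22, 11.00, 11.05 and 11.12 in control cells. The arms did not overlap at any hour. Its group had 0 of 7 members higher and 2 lower (background 10.9% and 12.1%). The other lower member was the lactate and pyruvate carrier SLC16A7 at -0.20 ± 0.05.

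Vitamin carriers had 1 of 13 higher and 6 lower (background 10.9% and 12.1%), the group's median difference being -0.13. The thiamine transporter SLC19A3 was at -0.39 ± 0.04, with 7.77, 7.89, 7.92 and 7.75 in knockdown cells at 4 h, against 8.34, 8.42, 8.35 and 8.17 in control cells. At 0 h it was 7.43, 7.38 and 7.18 in knockdown cells, against 7.63, 7.57, 7.95 and 7.61 in control cells. IL1B raised SLC19A3 at 4 h in control cells (0.63 ± 0.09) and in knockdown cells (0.50 ± 0.10), and the knockdown arrays were the lower ones at every hour. The ascorbate transporter SLC23A2 was at -0.40 ± 0.04: 10.24, 10.01 and 9.96 in knockdown cells at 0 h, against 10.55, 10.66, 10.66 and 10.38 in control cells, and 10.61, 10.50, 10.56 and 10.24 in knockdown cells at 8 h, against 10.89, 11.07 and 10.87 in control cells. The related ascorbate transporter SLC23A1 was at -0.35 ± 0.08, with 8.09, 8.13 and 7.61 in knockdown cells at 0 h, against 8.42, 8.73, 8.59 and 8.23 in control cells, and overlapping arms at 2, 4 and 10 h. The riboflavin transporter SLC52A3 had a mean of -0.17 ± 0.05, and its arms were apart at 4 h alone.

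Sugar carriers had 2 of 19 higher and 8 lower (background 10.9% and 12.1%). SLC2A12, a glucose transporter, was higher at 0.34 ± 0.04, with 7.67, 7.60 and 7.57 in knockdown cells at 0 h, against 7.27, 6.96, 7.08 and 7.21 in control cells. Its arms did not overlap at 0, 2 and 10 h. SLC2A14, whose probes may also read its near-identical copy, was higher at 0.36 ± 0.05: 6.74, 6.86, 6.55 and 6.83 in knockdown cells at 10 h, against 6.22, 6.36, 6.17 and 6.32 in control cells. Those control levels lay below the lower quartile of their arrays (6.63 to 6.66). SLC45A3, a sugar carrier by family, was lower at -0.32 ± 0.05. SLC2A1 was lower at 2 h (-0.28 ± 0.07) and 4 h (-0.38 ± 0.07), where the arms did not overlap, and its mean was -0.15 ± 0.03. At 2 h it no longer passed once control replicate 1 (adjusted p = 0.0526), control replicate 3 (0.0547) or knockdown replicate 1 (0.0783) was left out. At 4 h it measured 12.17, 12.25, 11.98 and 12.06 in knockdown cells, against 12.60, 12.40, 12.49 and 12.48 in control cells.

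Amino acid carriers had 3 of 29 higher and 5 lower (background 10.9% and 12.1%). SLC6A17, a carrier of neutral amino acids into vesicles of neurons, had the highest mean of all members at 0.51 ± 0.07 (adjusted p = 1.29e-06), 1.42-fold higher. It was 6.90, 6.76 and 6.92 in knockdown cells at 0 h, against 6.27, 6.21, 6.25 and 6.28 in control cells, and 6.56, 6.52, 6.25 and 6.67 in knockdown cells at 4 h, against 6.22, 5.98, 6.24 and 6.06 in control cells. The arms overlapped at 2, 8 and 10 h. The control levels of SLC6A17 at 0 and 4 h lay below the lower quartile of their arrays (6.61 to 6.66), and no detection call was used. SLC1A5 was lower at -0.30 ± 0.03, with 10.73, 10.83, 10.44 and 10.56 in knockdown cells at 4 h, against 11.03, 11.10, 11.18 and 11.00 in control cells. The lysosomal amino acid exporter SLC36A1 was lower at -0.29 ± 0.04, and the glycine transporter SLC6A9 higher at 0.19 ± 0.04. The means of SLC7A11 (-0.06) and SLC7A5 (-0.01) were not called.

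**Figure D4:**
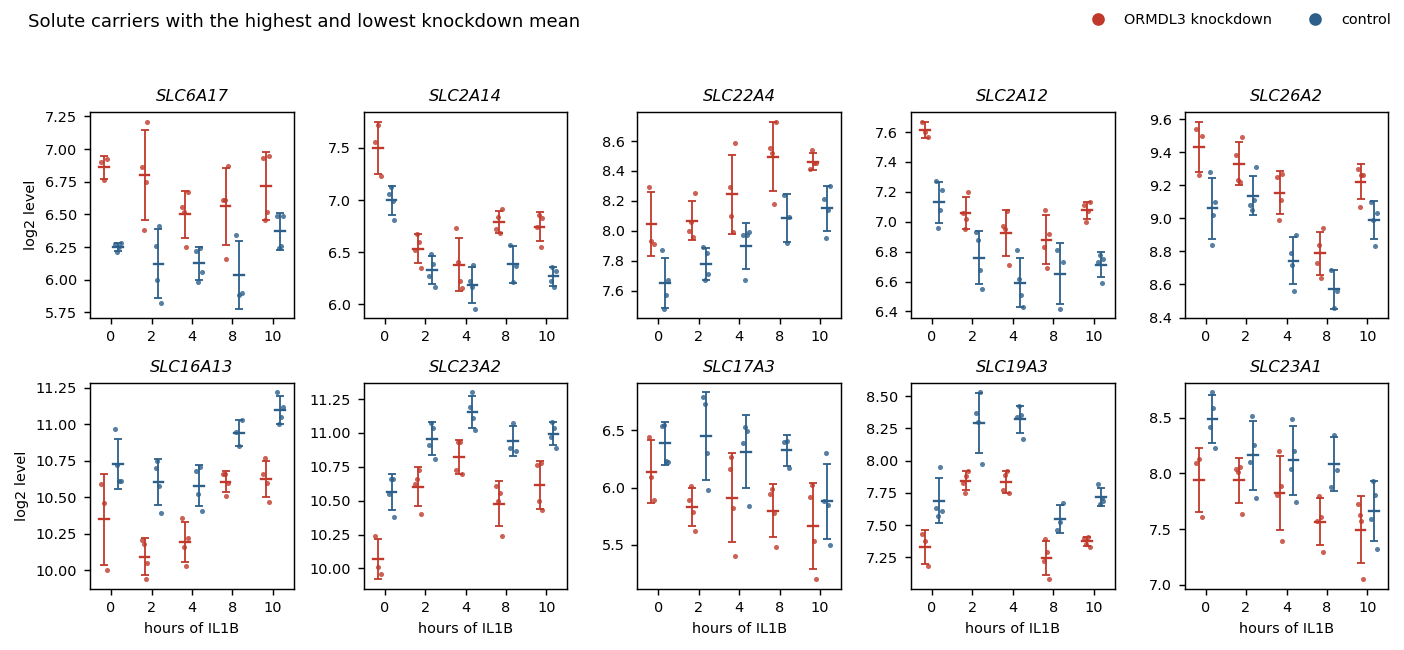
Log2 level (vertical axes) against hours of IL1B (horizontal axes) for the 5 solute carriers with the highest (top) and the 5 with the lowest (bottom) mean knockdown difference. Dots are arrays, ORMDL3 knockdown red and control blue, and bars are the mean ± SD of 3 or 4 arrays. SLC16A13, SLC23A2 and SLC19A3 have all red dots below the blue dots of the same hour, while those of SLC17A3 overlap at 0, 2, 4 and 10 h.

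Nucleotide sugar and acetyl-CoA carriers, which feed the glycosylation machinery of the secretory pathway, had 2 of 22 higher and 9 lower. For each group of this paragraph the background was 10.9% higher and 12.1% lower. SLC35D2, a carrier of nucleotide sugars into the Golgi, was higher at 0.28 ± 0.04, and the UDP-galactose transporter SLC35A2 lower at -0.27 ± 0.06. SLC35D1, of the same group, was lower at -0.3, and its arms were apart at 8 h alone. Organic ion carriers had 2 of 11 higher and 0 lower, with SLC22A4 at 0.35 ± 0.05. It measured 8.41, 8.54, 8.45 and 8.45 in knockdown cells at 10 h, against 8.21, 7.95, 8.14 and 8.30 in control cells, and the arms overlapped at 4 and 8 h. SLC26A2, a sulfate carrier listed with its chloride and bicarbonate family, was higher at 0.29 ± 0.04: 9.25, 8.99, 9.11 and 9.27 in knockdown cells at 4 h, against 8.79, 8.72, 8.56 and 8.90 in control cells. That ion group had 3 of 19 higher and 3 lower, among them the borate and water transporter SLC4A11 at 0.23 ± 0.03 and the proton exchanger SLC9A8 at -0.23 ± 0.04.

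Zinc carriers had 1 of 17 higher and 4 lower, with SLC39A10 at -0.22 ± 0.06. The background for these and the groups that follow was 10.9% higher and 12.1% lower. The iron, copper, magnesium and heme carriers had 1 of 8 higher and 3 lower, among them SLC41A2 at -0.14 ± 0.03 and SLC11A2 at -0.10 ± 0.03. Mitochondrial carriers had 5 of 35 higher and 3 lower, with SLC25A23 at 0.18 ± 0.03. Phosphate and sulfate carriers had 0 of 3 higher and 1 lower, SLC17A3, a carrier of urate and other organic anions. Its mean was -0.40 ± 0.09, with 5.94, 5.99, 5.78 and 5.48 in knockdown cells at 8 h, against 6.40, 6.41 and 6.17 in control cells, and the other hours overlapped. These 8 h levels all lay below the lower quartile of their arrays (6.52 to 6.65). None of the nucleoside and fatty acid carriers was called, 1 of 3 calcium exchangers and 1 of 6 neurotransmitter carriers were higher, and 5 of the 18 remaining members were lower, among them SLC5A5 at -0.24 ± 0.05.

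The last comparison asked whether the response to IL1B differed between the arms, as the knockdown change from 0 h minus the control change from 0 h. SLC39A8 was the only member called in the joint test of the 4 hours (adjusted p = 0.0193, background 0.166%). Its response was smaller in knockdown cells by 0.49 ± 0.10 at 8 h (adjusted p = 0.0163) and by 0.45 ± 0.09 at 10 h (adjusted p = 0.0441), and it was the only member called at those hours (background 0.228% at 8 h and 0.0828% at 10 h). At 2 h the difference in response was -0.08 ± 0.09 and at 4 h -0.19 ± 0.09, and 0 members were called at either hour or for the mean of 4 hours (background 0.0276%, 0.069% and 0.235%).

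The arms of SLC39A8 crossed. At 0 h its levels were 9.96, 9.95 and 10.03 in knockdown cells, against 9.95, 9.66, 9.69 and 9.92 in control cells. At 2 h they were 10.46, 10.38, 10.45 and 10.45 in knockdown cells, against 10.36, 10.30, 10.32 and 10.37 in control cells. The knockdown arrays were thus the higher ones at both early hours, by narrow margins, and the 0 h difference of 0.17 ± 0.07 was not called. At 4 h the arms overlapped, with 10.90, 10.99, 11.09 and 10.99 in knockdown cells, against 11.07, 11.09, 10.93 and 10.96 in control cells. At 8 h the levels were 11.39, 11.37, 11.33 and 11.37 in knockdown cells, against 11.66, 11.75 and 11.64 in control cells, and at 10 h 11.58, 11.48, 11.69 and 11.43 in knockdown cells, against 11.89, 11.90, 11.77 and 11.73 in control cells. At these late hours all knockdown arrays lay below all control arrays, with differences of -0.32 ± 0.07 at 8 h and -0.27 ± 0.06 at 10 h. Both were called, but 8 h did not pass without control replicate 2 (adjusted p = 0.0561), nor 10 h without control replicate 1 (0.0707), knockdown replicate 4 (0.0934) or knockdown replicate 2 (0.0557). SLC39A8 rose in both arms: the 10 h change was 1.57 ± 0.07 in knockdown cells and 2.01 ± 0.06 in control cells.

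The joint call of SLC39A8 stood in each fit with 1 array left out and was lost when all arrays numbered 4 were left out (adjusted p = 0.0989). For 8 h, 5 alternative fits left the response difference uncalled (adjusted p 0.0562 to 0.1845), among them those leaving out knockdown 0 h replicate 4 or control 0 h replicate 2. For 10 h, close to the threshold, 28 of 47 did so (adjusted p 0.0508 to 0.475), most of them fits with 1 array left out. The next members by joint p were not called: the glucose transporter SLC2A1 (0.187), SLC37A1 (0.214) and the Golgi sulfate donor carrier SLC35B3 (0.237). For SLC2A1 the difference in response was -0.16 at 2 h, -0.25 at 4 h, 0.05 at 8 h and 0.21 at 10 h. SLC37A1 began higher in knockdown cells, at 7.95, 7.85 and 7.86 at 0 h against 7.75, 7.52, 7.66 and 7.44 in control cells, and had 9.25, 9.24, 8.71 and 9.24 in knockdown cells at 8 h, against 9.32, 9.35 and 9.23 in control cells, 1 knockdown array being far below the others. SLC35B3 was lower in knockdown cells at 2 h, at 7.30, 7.08, 7.07 and 7.27 against 7.58, 7.67, 7.55 and 7.53 in control cells.

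**Figure D5:**
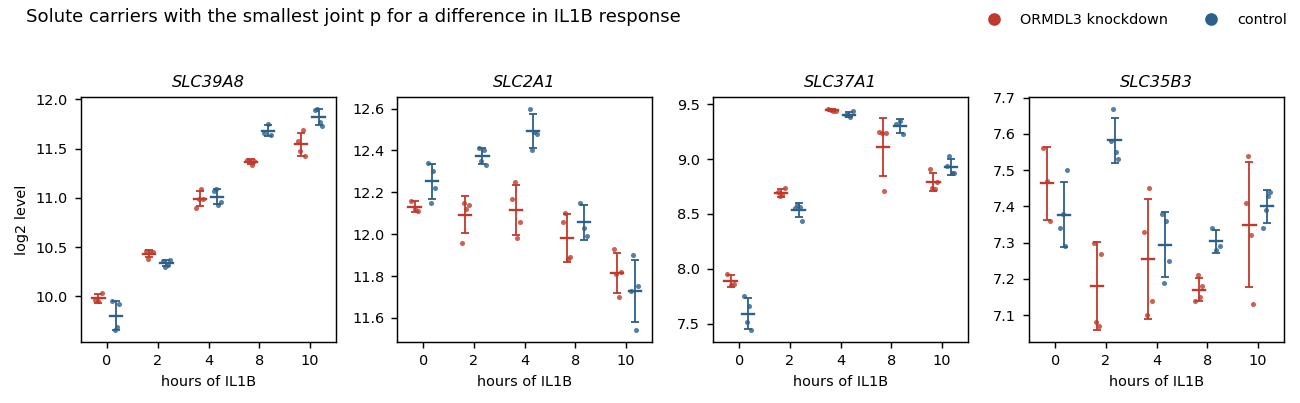
Log2 level (vertical axes) against hours of IL1B (horizontal axes) for the 4 solute carriers with the smallest joint p for a difference in IL1B response. Dots are arrays, ORMDL3 knockdown red and control blue, and bars are the mean ± SD of 3 or 4 arrays. For SLC39A8 the red dots lie above the blue ones at 2 h and below them at 8 and 10 h.

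Genes related to transport were counted from lists of accessory proteins, other transporters and enzymes. Not every accessory protein listed serves a solute carrier. Over all probe sets 18.1% were called higher and 21.2% lower with IL1B in control cells, and 10.9% higher and 12.1% lower with knockdown. Of the accessory proteins 10 of 15 were measured. With IL1B in control cells 0 were higher and 5 lower, among them UNC93B1, which escorts Toll-like receptors to endosomes (-0.48 ± 0.06), and the scaffold NHERF1 (-0.44 ± 0.05). With knockdown 1 was higher, CLTRN, an escort of amino acid transporters of the kidney (0.59 ± 0.06), and 4 were lower, led by OSTM1, the partner of a lysosomal chloride exchanger (-0.57 ± 0.04). Among users of arginine, glutamine and cystine 10 of 14 were measured, and 3 were higher and 2 lower with IL1B. ASS1, which rebuilds arginine from citrulline, rose by 1.90 ± 0.08, beside the arginine transporter SLC7A2, and 0 of this list were higher and 4 lower with knockdown, ASS1 at -0.30 ± 0.05.

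The same backgrounds (18.1% higher and 21.2% lower with IL1B, 10.9% and 12.1% with knockdown) stand beside the next lists. Among 16 measured of 21 metal-handling genes 4 were higher and 4 lower with IL1B, among them the zinc-sensing factor MTF1 (0.46 ± 0.07), the metallothionein MT1G (0.36 ± 0.10) and the ferrireductase STEAP3 (-0.44 ± 0.05). With knockdown 2 were higher and 2 lower. Of the pump and epithelial channel genes 11 of 18 were measured, with 3 higher and 2 lower with IL1B. The sodium channel subunit SCNN1A was the lowest at -0.85 ± 0.09, the water and glycerol channel AQP3 was at -0.64 ± 0.13, and the sodium pump subunit ATP1B1 was at 0.46 ± 0.05. With knockdown 1 was higher, the chloride channel ANO1 (0.36 ± 0.04), and 1 lower, SCNN1A (-0.33 ± 0.05). Of 11 genes listed as transcription factors of amino acid and metal responses 10 were measured, with 5 higher and 4 lower with IL1B. CEBPB led at 0.99 ± 0.06. TXNIP, which is in that list but is not a transcription factor, was 1 of the 4 lower (-0.64 ± 0.15). With knockdown 1 was higher, TXNIP (0.28 ± 0.09), and 0 were lower.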

How the data were processed

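Expression was measured on 38 Affymetrix arrays of total RNA from A549 cells. The authors deposited a log2 level for each probe set. Power Tools, RMA, limma 3.22.7 and hg19 are listed in the submitters' processing notes, without roles. The sources used here do not give how the 14488 probe sets were selected. The values were not normalized further or filtered on detection. Precision is limited by how many arrays there are. Groups and replicate numbers came from the labels. A model with a mean per group was fitted to all arrays in limma 3.58.1 (R 4.3.3, lmFit and eBayes), and each contrast's p-values were Benjamini-Hochberg adjusted over the whole table. Within an arm, every IL1B hour is set against one set of 0 h arrays, so overlaps between hours are not reported. Genes were named through the platform annotation, and 23 probe sets that name an SLC gene beside another gene were not used.

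The substrate groups, gene lists and members were chosen with earlier results of these data known. Genes were named by a rule: the 10 highest and 10 lowest called means for IL1B in control cells and for knockdown, the 3 (IL1B) or 2 (knockdown) highest and lowest at each hour, the 8 smallest joint p, the 2 largest called changes per substrate group, and a fixed set, of which SLC34A2, SLC26A4, SLC16A3, SLC1A2 and SLC1A3, among others, were not analysed here. SLC29A1 and SLC29A4 complete their group and were added after their values were seen. Promoter sequences are from RefSeq (GRCh38.p14). The procedure was tested on simulated data with independent noise on each array. Such data hold no link between arrays that share a replicate number.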

Additional observations from a re-analysis of the deposited data

Results flagged for a closer look

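In 22 members the groups of 4 arrays were searched for an array far from the other 3 (gap to the nearest of the others over the whole range, above the critical value of Dixon for 4 arrays). Chance marks about 1 in 20 groups, and 10 of 176 were marked (5.68%). An array stood high for SLC16A14 in control 2 h replicate 1 (6.51), SLC2A6 in control 10 h replicate 2 (10.56), SLC52A3 in control 10 h replicate 2 (6.75) and SLC45A4 in knockdown 10 h replicate 3 (9.03). An array stood low for SLC23A1 in knockdown 2 h replicate 4 (7.64), SLC26A2 in knockdown 10 h replicate 2 (9.07), SLC2A1 in knockdown 2 h replicate 1 (11.96), SLC37A1 in knockdown 8 h replicate 3 (8.71), SLC39A8 in knockdown 2 h replicate 2 (10.38) and SLC22A4 in control 4 h replicate 2 (7.67).

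The IL1B response of SLC39A8 differed between the arms by the test of the difference itself: the joint adjusted p was 0.0193, and the response in knockdown cells minus that in control cells was -0.49 at 8 h and -0.45 at 10 h.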

How the results depend on the processing

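The count of members called moved by more than 1.5 times in these fits. Without probe sets dimmer than the median of all, which left 135 members, IL1B in control cells gave 67 calls at 8 h, 76 at 10 h and 71 for the mean, IL1B in knockdown cells gave 60 at 8 h, knockdown gave 47 for the mean, and the response difference gave 2 at 8 h and 1 for the mean. With an adjusted p under 0.01, IL1B in knockdown cells gave 35 calls at 2 h and 66 for the mean, knockdown gave 4 at 0 h, 6 at 2 h, 4 at 8 h, 0 at 10 h and 38 for the mean, and the response difference gave 0 at 8 h, at 10 h and jointly. With array weights, IL1B in knockdown cells gave 95 at 2 h, knockdown gave 38 at 0 h, 47 at 2 h and 15 at 8 h, and the response difference gave 19 at 2 h, 1 at 4 h, 6 at 8 h, 12 for the mean and 12 jointly. With only the groups compared, knockdown gave 1 at 0 h, 5 at 2 h, 1 at 4 h, 0 at 8 h and 2 at 10 h, and the response difference 0 at 8 h and 0 at 10 h. Without all arrays numbered 4, knockdown gave 5 at 0 h, 32 at 2 h and 4 at 10 h, and the response difference 2 at 2 h and 0 at 8 h, at 10 h and jointly. Array medians gave 0 response calls at 8 h and at 10 h, and quantile normalization gave 0 at 10 h.

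The labels give the shared replicate numbers no meaning, and not every pair of arrays with 1 number deviated together. The correlation of deviations over the 162 pairs of arrays with the same number ran from -0.286 to 0.617. Its median was 0.177, and 107 pairs were above 0.1. Over the 487 pairs with different numbers it ran from -0.526 to 0.480, with a median of -0.056 and 104 above 0.1. Pairs with the same number thus tended to correlate more, and 28 of 38 arrays correlated best with their own number. This is a hint from the data and not from the design, and the main fit did not use it. With the replicate block, knockdown gave 22 calls at 0 h, 41 at 2 h, 20 at 4 h, 14 at 8 h and 17 at 10 h, and the response difference gave 2 at 8 h, 2 for the mean and 2 jointly. With a random replicate block, knockdown gave 21 at 0 h, 34 at 2 h and 15 at 4 h.

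With 1 array left out, IL1B in control cells gave 47 to 57 calls at 2 h, 91 to 105 at 4 h, 91 to 108 at 8 h, 102 to 117 at 10 h and 100 to 114 for the mean, and IL1B in knockdown cells gave 38 to 66, 59 to 90, 77 to 96, 74 to 93 and 70 to 105. Knockdown gave 5 to 14 at 0 h, 8 to 31 at 2 h, 5 to 10 at 4 h, 3 to 9 at 8 h, 0 to 12 at 10 h and 60 to 76 for the mean. The response difference gave 0 at 2 and 4 h, 0 to 1 at 8 h, 0 to 2 at 10 h, 0 to 1 for the mean and 1 jointly. Over all fits, those given above included, 977 counts stayed within 1.5 times and 98 did not. Of named genes 4755 values kept their direction and side of the threshold, 156 lost the call and 0 reversed. These values do not cover every hour and arm, so they do not measure how stable the single-hour calls were. The knockdown call of SLC16A13 at 4 h, for example, was lost without control 4 h replicate 3 (limma adjusted p = 0.173). The cause of these shifts was not tested, except that fewer members or arrays enter some fits.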

Other observations

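Transporters named outside the SLC symbols moved as well. The organic anion transporters of the SLCO family, which are solute carriers of family 21 under another name, had 6 of 7 measured members higher and 1 lower with IL1B in control cells (background 18.1% higher and 21.2% lower). SLCO2B1 rose by 1.90 ± 0.08, SLCO5A1 by 0.95 ± 0.09 and SLCO4A1, a thyroid hormone carrier, by 0.55 ± 0.08, while SLCO4C1 was at -0.75 ± 0.12. With knockdown 4 of the 7 were higher and 1 lower (background 10.9% higher and 12.1% lower): SLCO2B1 was at 0.38 ± 0.05, SLCO5A1 at 0.35 ± 0.05, SLCO4A1 at 0.34 ± 0.04 and SLCO3A1 at -0.08 ± 0.03.

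Of the ABC transporters, pumps driven by ATP, 21 of 25 were measured, with 4 higher and 10 lower with IL1B (background 18.1% and 21.2%). The drug and urate pump ABCG2 was the lowest at -0.67 ± 0.06, and the cholesterol exporter ABCA1 the highest at 0.60 ± 0.11. With knockdown 6 were higher and 3 lower (background 10.9% and 12.1%), with ABCG2 at -0.34 ± 0.03 and the surfactant lipid transporter ABCA3 at 0.27 ± 0.05.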
